A study of Mus musculus with 14 samples.

Results

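The 9 genes described here, Ovol1, Ap5b1, Rnaseh2c, Rela, Sipa1, Pcnx3, Map3k11, Ehbp1l1 and Ltbp3, flank Kat5 on mouse chromosome 19. They were taken from a list of its close neighbours, with Kat5 left out, among 26270 gene identifiers in the count files. Of the 9, 8 passed the filter on low counts and were tested together with 14327 genes in all, and Ovol1 did not. The data are RNA-seq counts from 14 libraries of MEFs, the connective tissue cells of mouse embryos, here from E13.5 embryos and grown in 3% O2. Kat5 encodes the lysine acetyltransferase Tip60, and its deletion was the purpose of a treatment with 250 nM 4-hydroxytamoxifen (4-OHT), which serves in many mouse models as the ligand of an inducible Cre. The groups were Tip60-/- cells (KO) at day 3 (n = 3), Tip60+/+ cells (control) at day 3 (n = 3), KO at day 5 (n = 4) and control at day 5 (n = 4). The labels carry 1 treatment text for all samples, so whether control cells also received the drug is not given separately, and neither the driver of the recombinase nor the deleted part of Kat5 is named in the labels.

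The neighbours have unrelated roles. OVOL1 is a zinc finger transcription factor of epithelia, AP5B1 is a subunit of the AP-5 adaptor complex of late endosomes, and RNASEH2C is a subunit of RNase H2, which removes ribonucleotides from DNA. RELA (p65) is the transactivating subunit of NF-kB, SIPA1 switches off the small GTPase RAP1, MAP3K11 (MLK3) is a kinase upstream of JNK, and EHBP1L1 is an adaptor of RAB8 in membrane transport. LTBP3 binds latent TGF-beta in the extracellular matrix, and PCNX3 is a membrane protein of the pecanex family whose function is poorly known.

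In the RefSeq annotation of GRCm38 (mm10), Kat5 (gene identifier 81601) lies on the minus strand at chr19:5603014-5611556. On its lower-coordinate side lie Ovol1 (18426, minus strand, chr19:5549137-5560575), Ap5b1 (381201, plus strand, chr19:5560250-5571262) and Rnaseh2c (68209, plus strand, chr19:5601873-5602959). On the other side lie Rela (19697, plus, chr19:5637442-5648134), Sipa1 (20469, minus, chr19:5651185-5663722), Pcnx3 (104401, minus, chr19:5664635-5689003), Map3k11 (26403, plus, chr19:5688411-5702865), Ehbp1l1 (114601, minus, chr19:5707369-5726576) and Ltbp3 (16998, plus, chr19:5740900-5758536). Rnaseh2c and Kat5 end tail to tail, 54 bases apart, and the exons of 1 of 6 GENCODE transcripts of Rnaseh2c overlap a Kat5 exon by 426 bases. Rela begins 25.9 kb from Kat5 and Ltbp3, the farthest, 129 kb from it. Ovol1 and Ap5b1 overlap by 326 bases and Pcnx3 and Map3k11 by 593 bases on opposite strands, and since the strand setting of the counting is not given, reads in such overlaps cannot be assigned to 1 gene with certainty.

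The stretches before the starts of 4 neighbours are shown because these genes cover the range of results, with Rnaseh2c next to the targeted gene and not called, Rela and Sipa1 lower in KO, and Ltbp3 higher in KO. Each is read 5′ to 3′ on the gene's own strand from RefSeq (GRCm38.p6), up to 250 bases before the annotated start without bases inside the gene's annotated span. Capitals mark matches, on either strand, to the GC box (GGGCGG), the CCAAT box, the E-box (written CACGTG), the TATA box (written TATAAA), the cAMP response element (written TGACGTCA) or the NF-kB consensus.
Rnaseh2c, chr19:5601623-5601872, plus strand: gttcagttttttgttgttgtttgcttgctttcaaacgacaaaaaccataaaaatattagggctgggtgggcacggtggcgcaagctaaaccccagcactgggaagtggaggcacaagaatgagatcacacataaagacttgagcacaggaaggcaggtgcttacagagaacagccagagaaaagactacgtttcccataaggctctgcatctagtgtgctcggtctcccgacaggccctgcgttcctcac
Rela, chr19:5637291-5637441, plus strand: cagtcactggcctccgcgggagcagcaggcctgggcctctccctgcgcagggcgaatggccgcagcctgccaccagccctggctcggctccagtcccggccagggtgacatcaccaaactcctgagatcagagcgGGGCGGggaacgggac
Sipa1, chr19:5663723-5663957, minus strand: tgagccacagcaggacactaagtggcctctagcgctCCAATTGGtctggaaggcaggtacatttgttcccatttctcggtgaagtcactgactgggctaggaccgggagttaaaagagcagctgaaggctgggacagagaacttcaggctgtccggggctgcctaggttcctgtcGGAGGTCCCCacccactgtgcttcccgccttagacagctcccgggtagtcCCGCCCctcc
Ltbp3, chr19:5740650-5740899, plus strand: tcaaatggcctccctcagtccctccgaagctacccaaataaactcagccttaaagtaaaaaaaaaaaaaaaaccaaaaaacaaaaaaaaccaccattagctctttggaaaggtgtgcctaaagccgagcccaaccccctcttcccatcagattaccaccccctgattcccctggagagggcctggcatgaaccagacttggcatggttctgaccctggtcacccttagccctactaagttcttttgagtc

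The Rela stretch held 1 GGGCGG match. Of 27025 promoters, 16.6% hold one in the first 151 of their 250 bases, the part farthest from the start, and 32.9% in all 250. The Sipa1 stretch held 1 GGGCGG match on the opposite strand (30.7% of promoters in the first 235 bases). It also held 2 overlapping CCAAT matches in a palindrome (33.2%) and 1 match to the NF-kB consensus on the opposite strand (6.52%). No match to any of the 6 was present in the Rnaseh2c or Ltbp3 windows. The Rela stretch was the richest in G and C (70.9%, with 10 CpG), followed by Sipa1 (59.1%, 8 CpG), Rnaseh2c (49.2%, 7 CpG) and Ltbp3 (47.2%, 2 CpG), against medians of 52% and 6 CpG over all promoters of 250 bases.

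Counts assigned to gene identifiers ranged from 2182919 in KO day 3 replicate 3 to 39113170 in KO day 3 replicate 2. Fibroblast markers were present throughout, with 14 of 14 averaging at least 1 CPM (counts scaled by the library's total, the unit of all levels here) in each group. Of the tested genes per marker list, at day 3 in KO 7 of 14 fibroblast markers were higher and 1 lower, 2 of 6 epithelial markers higher and 1 lower, 6 of 11 macrophage markers lower and 0 higher, 1 of 7 endothelial markers higher and 1 lower, 3 of 3 skeletal muscle markers higher, 2 of 7 neural and glial markers higher and 0 lower, and 1 of 5 adipocyte markers higher and 1 lower. At day 5 the counts higher and lower were 3 and 6 for fibroblast, 3 and 1 for epithelial, 1 and 4 for macrophage, 2 and 1 for endothelial, 1 and 0 for muscle, 1 and 1 for neural and glial, and 2 and 0 for adipocyte markers; their part in the results was not tested. Among all tested genes, 50.9% were called at day 3 (24.6% higher, 26.2% lower) and 52.5% at day 5 (26.3% higher, 26.2% lower). By the labels, KO libraries at day 3 carry litter numbers 2 and 3 and control libraries number 1. Numbers 1 and 2 occur in both genotypes at day 5. Whether a number marks the same litter in both genotypes is not stated. The embryo labels under each shared number begin differently in KO and control, and no such beginning occurs in both genotypes. If the beginning of an embryo label marks the litter, no litter holds both genotypes. Litter and genotype then cannot be told apart at either day. The part of litter in the results was not tested. The sexes were also unequal, with males in 2 of 3 KO and 0 of 3 control libraries at day 3 and in 3 of 4 KO and 1 of 4 control libraries at day 5. Replicates 1 and 2 of the day 3 controls share 1 embryo, and most embryos gave a library at each of the days. Control day 5 replicate 4 stood apart from the other libraries of its group. It is the only male control and also the only control with litter number 2, so sex and litter cannot be told apart for it.

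Kat5 itself checks the labels. It had 21.1, 20.2 and 18.3 CPM in the KO libraries at day 3, against 31.5, 32.3 and 32 CPM in the control libraries. At day 5 it had 17.3, 17.8, 19.9 and 18.7 CPM in KO, against 30.9, 29.8, 32.1 and 30.9 CPM in control. KO libraries were below control libraries at both days, with log2 fold changes (KO over control) of -0.68 ± 0.0856 (standard error, SE) at day 3 and -0.75 ± 0.0706 at day 5. These falls are smaller than a full loss of the transcript, and a gene-level count includes reads from exons outside the deleted part. Where the remaining counts come from was not tested.

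Among the 8 neighbours tested at day 3, Rela, Sipa1 and Ehbp1l1 fell and Ltbp3 rose, and the other 4 were not called (edgeR quasi-likelihood test, adjusted p below 0.05). The libraries of KO and control did not overlap for 4 of 8. Over all genes tested, 50.9% were called at day 3 and 57.8% had libraries that did not overlap. Of all genes, 24.6% were called higher and 26.2% lower in KO. At day 5 the same 4 genes changed in the same directions, Pcnx3 also rose, and the libraries did not overlap for 5 of 8. The background at day 5 was 52.5% called (26.3% higher, 26.2% lower) and 47.4% not overlapping. The shares called among the neighbours, 50% at day 3 and 62.5% at day 5, were thus near those over all genes.

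The median log2 fold change of the 8 was -0.09 at day 3 and -0.02 at day 5, against -0.00 and 0.02 over all tested genes and -0.09 and -0.06 over the 488 tested genes of chromosome 19. The median size of the change, regardless of sign, was 0.356 and 0.3 on the log2 scale for the neighbours, against 0.434 and 0.373 over all genes.

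**Figure D1:**
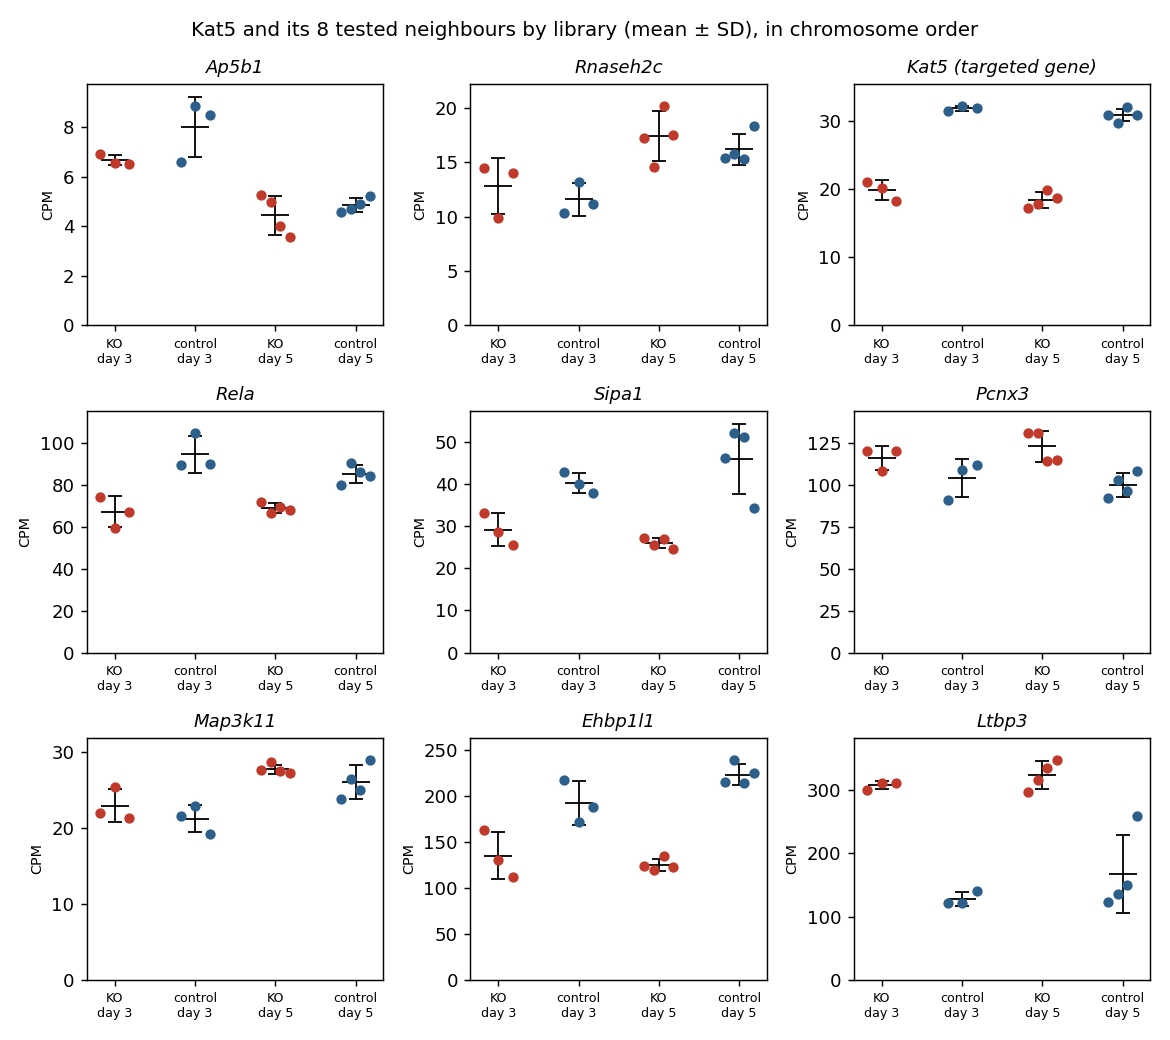
Expression (CPM, linear axes from 0) of Kat5 and its 8 tested neighbours in each of 14 libraries, with KO in red and control in blue, and bars for the mean and SD of each group. Rela, Sipa1 and Ehbp1l1 lie lower in all 7 KO than in all 7 control libraries, and Ltbp3 lies higher in all 7. The 7 libraries of a genotype pool both days and share embryos, so they are not 7 replicates. In control at day 5, 1 library has 259 CPM of Ltbp3.

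Ltbp3, the farthest of the neighbours from Kat5, rose in KO. It had 301, 311 and 312 CPM in KO at day 3, against 121, 121 and 141 CPM in control. The day 5 values were 297, 317, 335 and 348 CPM in KO, against 123, 136, 150 and 259 CPM in control. All 7 KO libraries (297 to 348 CPM) were above all 7 control libraries (121 to 259 CPM). The highest control value was that of replicate 4 at day 5. Such ranges, here and for Rela, Sipa1 and Ehbp1l1 below, pool both days and share embryos, so they do not hold 7 replicates. How many of all genes separate in this way was not counted. The log2 fold change was 1.27 ± 0.213 SE at day 3 (a fold of 2.41, adjusted p = 0.000315) and 0.96 ± 0.181 at day 5 (a fold of 1.94, adjusted p = 0.000738). Without control day 5 replicate 4 the day 5 value was 1.25 (adjusted p = 1.93e-08). Among male libraries alone, where that replicate was the only control, it was 0.33 (adjusted p = 0.08).

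Markers of cartilage and bone moved with Ltbp3. Of 12 markers, 9 were tested, and 8 were higher in KO at day 3 and 6 at day 5, with none lower. Among all tested genes, 24.6% were called higher at day 3 and 26.3% at day 5. Their summed level was 2363 to 2762 CPM in KO and 123 to 215 CPM in control at day 3. At day 5 it was 1901 to 3869 CPM in KO and 232 to 2647 CPM in control, and the control with 2647 CPM was replicate 4, the library with 259 CPM of Ltbp3. In the KO libraries and in that control, most of the sum came from Col2a1, the main collagen of cartilage. Col2a1 had 2472 CPM in that control and 127 to 303 CPM in the other day 5 controls. In the day 3 controls it had 26.2 to 113 CPM and was not most of the sum in each library. Ibsp was at 0 in both control groups and Matn1 in the day 3 controls, while no marker was at 0 in a KO group. The part of these cells in the Ltbp3 result was not tested, and in bulk RNA more cells of a type and more RNA per cell cannot be told apart.

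**Figure D2:**
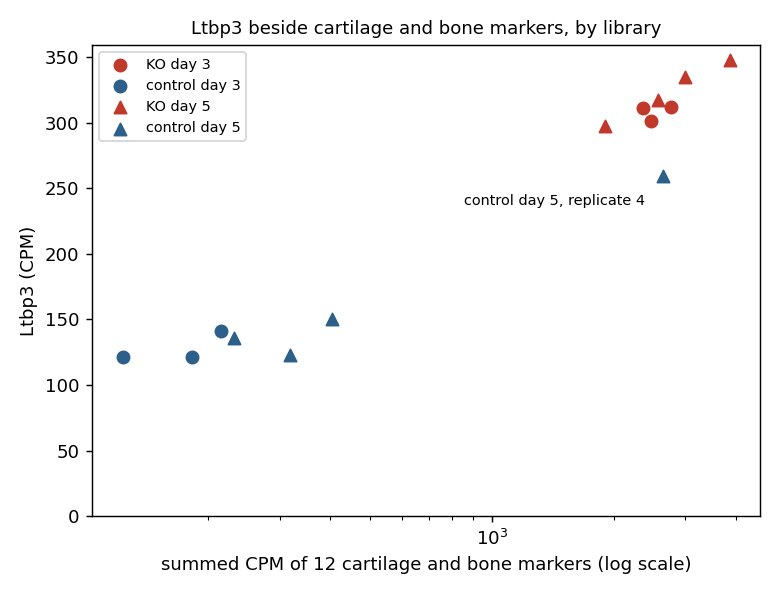
Ltbp3 (CPM, linear axis) against the summed CPM of 12 cartilage and bone markers (log axis) in each library, with KO in red, control in blue, circles for day 3 and triangles for day 5. Of the 7 control libraries, 6 lie at 123 to 403 CPM of markers and 121 to 150 CPM of Ltbp3, and control day 5 replicate 4 lies near the KO libraries on the marker axis.

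Other genes of latent TGF-beta and of the LTBP family were also changed. Some LTBPs tether the latent growth factor to fibrillin in the matrix, and integrins and thrombospondin release it. Of 18 tested genes of this list other than Ltbp3, 11 were higher and 2 lower in KO at day 3 (median log2 fold change 1.01). At day 5, 7 were higher and 3 lower (median 0.32). The shares called over all genes were 50.9% at day 3 and 52.5% at day 5. Lrrc32, a cell surface anchor of latent TGF-beta, rose by 1.57 at day 3 on the log2 scale and by 0.34 at day 5. Thbs1, encoding thrombospondin, rose by 2.49 at day 3, and its value at day 5 was 0.58 (adjusted p = 0.0551). Tgfbr2, the type II receptor, rose by 0.91 at day 3 and by 0.57 at day 5. The 3 ligand genes, named as a complete family after their values were seen, had changes of both signs. Tgfb1 averaged 27.4 CPM in KO and 69.4 CPM in control at day 3, and fell by 1.29 at day 3 and by 0.48 at day 5. Tgfb2 averaged 90.2 CPM in KO and 12.3 CPM in control at day 3, and rose by 2.91 at day 3 and by 1.57 at day 5. Tgfb3, the most abundant by CPM in each group, averaged 352 CPM in KO and 83.6 CPM in control at day 3 and rose by 2.08, and its value at day 5 was 0.32 (adjusted p = 0.368).

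The LTBP paralogues, named here as a complete family after their values were seen, had changes of both signs. Ltbp1 rose by 1.11 and Ltbp2 by 2.60 at day 3 on the log2 scale. At day 5 Ltbp2 rose by 0.93, and the value for Ltbp1 was 0.19 (adjusted p = 0.399). Ltbp4 fell by 0.64 at day 3 and by 0.63 at day 5.

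Rela fell in KO at both days. It had 74.4, 59.6 and 67.4 CPM in KO at day 3, against 89.4, 105 and 90 CPM in control. At day 5 it had 72, 66.6, 69.4 and 68.1 CPM in KO, against 80, 90.4, 86.5 and 84.5 CPM in control. All KO libraries (59.6 to 74.4 CPM) were below all control libraries (80 to 105 CPM). The log2 fold change was -0.48 ± 0.0872 SE at day 3 (71.7% of control, adjusted p = 0.000428) and -0.31 ± 0.0737 at day 5 (80.9% of control, adjusted p = 0.00319). Among male libraries alone the day 5 value was -0.28 and was not called (adjusted p = 0.0722).

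Other genes of the NF-kB pathway moved in both directions. Of 25 tested subunits and regulators other than Rela, 6 were higher and 5 lower in KO at day 3. At day 5, 7 were higher and 4 lower. The background over all genes was 50.9% called at day 3 (24.6% higher, 26.2% lower) and 52.5% at day 5 (26.3% higher, 26.2% lower). Nfkbia, encoding the inhibitor that holds NF-kB in the cytoplasm, averaged 41.2 CPM in KO and 17.4 CPM in control at day 3 and rose by 1.27 on the log2 scale. At day 5 Nfkbia rose by 0.73. Its relative Nfkbie rose by 1.32 at day 3 and by 1.43 at day 5, whereas Nfkbib, another relative, fell by 0.61 and 0.48. Of 27 tested NF-kB target genes, 14 were higher and none lower in KO at day 3 (median log2 fold change 1.32), and 8 were higher and 2 lower at day 5 (median 0.15). Mmp13, a collagenase that cartilage cells also make, averaged 84.2 CPM in KO and 4.54 CPM in control at day 3.

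Sipa1 fell in KO at both days. It had 33.2, 28.6 and 25.4 CPM in KO at day 3, against 42.8, 40 and 37.9 CPM in control. The day 5 values were 27.2, 25.4, 26.9 and 24.6 CPM in KO, against 46.1, 52.1, 51.2 and 34.2 CPM in control. The KO libraries (24.6 to 33.2 CPM) were below the control libraries (34.2 to 52.1 CPM), and control day 5 replicate 4 was the lowest control. The log2 fold change was -0.45 ± 0.143 SE at day 3 (adjusted p = 0.0162) and -0.81 ± 0.119 at day 5 (adjusted p = 6.73e-05). The day 3 call was lost with sex as a covariate (-0.30, adjusted p = 0.0667), among female libraries alone (-0.25, adjusted p = 0.0905), without KO replicate 4 (-0.34, adjusted p = 0.0902) and without control replicate 1 (-0.41, adjusted p = 0.0514). Among male libraries alone the day 5 value was -0.39 (adjusted p = 0.0573).

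The RAP1 cycle, which SIPA1 turns off, held changes in both directions. Of 16 tested genes other than Sipa1, 3 were higher and 5 lower in KO at each day. These counts were near the shares called over all genes, 50.9% at day 3 and 52.5% at day 5. Rap1b, one of the genes for the GTPase itself, fell by 0.40 at day 3 and by 0.43 at day 5 on the log2 scale. Rapgef1, an activating exchange factor, fell by 0.59 and 0.49, whereas Rapgef5, another exchange factor, rose by 2.00 and 2.89.

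Ehbp1l1 fell in KO at both days. It had 163, 130 and 112 CPM in KO at day 3, against 217, 171 and 188 CPM in control. At day 5 it had 124, 119, 135 and 123 CPM in KO, against 215, 239, 214 and 225 CPM in control. The KO libraries (112 to 163 CPM) were below the control libraries (171 to 239 CPM), and the gap was narrowest at day 3, between KO replicate 2 and control replicate 2. The log2 fold change was -0.50 ± 0.12 SE at day 3 (70.7% of control, adjusted p = 0.0032) and -0.83 ± 0.103 at day 5 (56.2% of control, adjusted p = 1.54e-05). Among female libraries alone, with 1 KO library a day, the day 3 value was -0.21 and was not called (adjusted p = 0.169). The day 5 call held in all 23 alternatives, with log2 fold changes of -0.90 to -0.78.

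Of 12 other tested genes of EHBP1, EHD and RAB8 trafficking, 5 were higher and 3 lower in KO at day 3. At day 5, 1 was higher and 6 lower. The shares called over all genes were 50.9% at day 3 and 52.5% at day 5. Bin1, an amphiphysin that bends membranes and binds EHBP1L1, fell by 0.78 at day 3 and by 0.94 at day 5 on the log2 scale. Rab11a, a GTPase of recycling endosomes, fell by 0.44 and 0.51, and Rab8a fell by 0.48 and 0.54. Ehd3, an ATPase of endosomal recycling, rose by 2.06 at day 3 and by 1.06 at day 5.

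**Figure D3:**
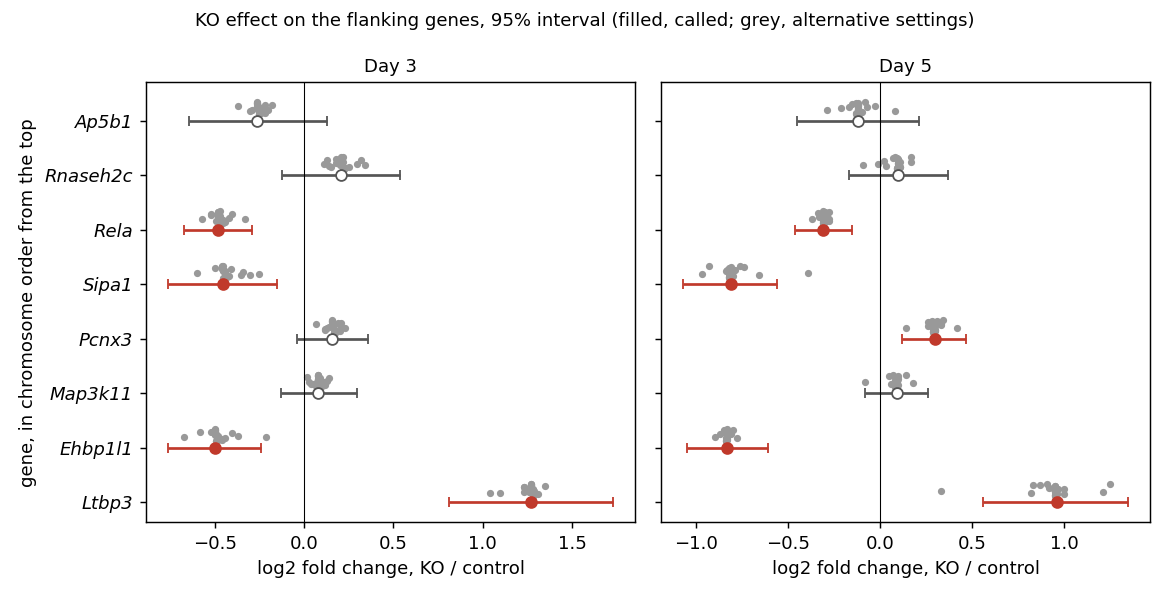
Log2 fold change, KO over control, of the 8 tested neighbours at each day (large points, with 95% intervals; filled red where called) and under the alternative settings (grey points). Ltbp3 is called higher and Rela, Sipa1 and Ehbp1l1 lower at both days, Pcnx3 is called at day 5, and the Ltbp3 point near 0.33 at day 5 is the one from male libraries alone.

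Pcnx3 was higher in KO at day 5. It had 131, 131, 114 and 115 CPM in KO, against 91.9, 103, 96.5 and 108 CPM in control, with no overlap (log2 fold change 0.30 ± 0.0813 SE, adjusted p = 0.00731). At day 3 it had 120, 108 and 120 CPM in KO, against 90.9, 109 and 112 CPM in control, and the groups overlapped (0.16 ± 0.0954, 95% interval -0.04 to 0.36, adjusted p = 0.175). Among male libraries alone the day 5 value was 0.14 (adjusted p = 0.416). Of the 2 other tested pecanex genes, Pcnx4 fell by 0.41 at day 3, and neither was called at day 5.

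Map3k11, which lies head to head with Pcnx3, was not called. It had 21.9, 25.4 and 21.3 CPM in KO at day 3, against 21.5, 22.8 and 19.2 CPM in control. The day 5 values were 27.6, 28.6, 27.5 and 27.2 CPM in KO, against 23.8, 26.4, 24.9 and 28.9 CPM in control. The groups overlapped at both days, with log2 fold changes of 0.08 (95% interval -0.13 to 0.30, adjusted p = 0.6) and 0.09 (-0.08 to 0.26, adjusted p = 0.374). Of 15 other tested mixed-lineage kinase and JNK genes, 1 was higher and 4 lower at day 3. At day 5, 2 were higher and 5 lower. The shares called over all genes were 50.9% at day 3 and 52.5% at day 5. Map3k12, a related kinase, fell by 0.79 and 0.62 on the log2 scale, and Cdc42, a GTPase that activates MAP3K11, fell by 0.21 and 0.52.

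Rnaseh2c, whose end lies 54 bases from that of Kat5, was not called. It had 14.5, 9.86 and 14 CPM in KO at day 3, against 10.3, 13.2 and 11.2 CPM in control. At day 5 it had 17.2, 14.6, 20.2 and 17.5 CPM in KO, against 15.4, 15.8, 15.3 and 18.3 CPM in control. The groups overlapped at both days, and the lowest value was that of KO day 3 replicate 3, the shallowest library, where it rested on 21 counts. The log2 fold changes were 0.21 (95% interval -0.12 to 0.54, adjusted p = 0.28) and 0.10 (-0.17 to 0.37, adjusted p = 0.516), so both lower bounds lie above the fall of Kat5 itself. The other RNase H2 subunits, named as a complete complex after their values were seen, were not called either. Rnaseh2a had -0.28 and -0.35 and Rnaseh2b -0.15 and -0.06. Of the 10 other tested genes of RNase H and Aicardi-Goutieres syndrome, a disease of nucleic acid sensing, 3 were higher and 2 lower in KO at each day. The shares called over all genes were 50.9% at day 3 and 52.5% at day 5. Sting1, an adaptor of DNA sensing, fell by 1.02 at day 3 and by 1.12 at day 5. Samhd1, which degrades deoxynucleotides, rose by 1.20 at day 3, and its value at day 5 was 0.01 (adjusted p = 0.967).

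Ap5b1 was not called between genotypes. It had 6.91, 6.58 and 6.54 CPM in KO at day 3, against 6.62, 8.88 and 8.49 CPM in control. The day 5 values were 5.25, 4.97, 4.01 and 3.57 CPM in KO, against 4.57, 4.72, 4.89 and 5.24 CPM in control. The groups overlapped at both days, and the log2 fold changes were -0.26 (95% interval -0.64 to 0.13, adjusted p = 0.247) and -0.12 (-0.45 to 0.21, adjusted p = 0.541). Of the 5 other AP-5 genes, 2 were lower in KO at day 3, and 1 was higher and 1 lower at day 5. The shares called over all genes were 50.9% at day 3 and 52.5% at day 5. Spg11, a partner of the complex, fell by 0.34 at day 3 and by 0.24 at day 5. Ap5z1, the zeta subunit, fell by 0.62 at day 3, and its value at day 5 was 0.14 (adjusted p = 0.202).

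Ovol1 was at the edge of detection. It had 1, 0 and 2 counts in KO at day 3, against 0, 1 and 2 counts in control. At day 5 it had 3, 0, 0 and 0 counts in KO, against 1, 0, 0 and 0 counts in control. Summed over libraries, 6 counts in KO and 4 in control allow no comparison at this depth. Epithelial markers, the genes of the cell type in which OVOL1 is known, summed to 49.7 to 90.4 CPM in KO and 133 to 211 CPM in control at day 3, and to 36.3 to 50.3 CPM in KO and 41.4 to 66.6 CPM in control at day 5. The marker with the highest mean in each group was Krt19, a keratin of simple epithelia named after its values were seen, which averaged 42.6 CPM in KO and 142 CPM in control at day 3 and fell by 1.72 on the log2 scale. Cdh1, encoding E-cadherin, went the other way, with 3.71 CPM in KO and 0.28 CPM in control at day 3, and rose by 3.72. Trp63, a factor of stratified epithelia, averaged 6.32 CPM in KO and 0.026 CPM in control at day 3. Grhl2 was at 0 in both control groups and averaged only 0.00879 CPM in KO at day 3 and 0.00874 CPM at day 5. Esrp1 averaged 0.00879 CPM in KO and 0.154 CPM in control at day 3, and 0.0254 CPM and 0 at day 5. Neither gene passed the filter on low counts, so these values allow no comparison. Of 9 tested OVOL and epithelial-mesenchymal genes, 4 were higher and 2 lower in KO at each day. The shares called over all genes were 50.9% at day 3 and 52.5% at day 5. Snai1, a repressor of epithelial genes, rose by 1.40 at day 3, and its value at day 5 was 0.09 (adjusted p = 0.341).

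Calls around Kat5 were counted by distance. Within 500 kb, 48 genes were tested besides Kat5, and 18 of them were called at day 3 (5 higher and 13 lower, 37.5%) and 27 at day 5 (11 higher and 16 lower, 56.2%). Over all genes tested, 50.9% were called at day 3 (24.6% higher, 26.2% lower) and 52.5% at day 5 (26.3% higher, 26.2% lower). Within 50 kb, 2 of 4 genes were called at each day, which were Rela and Sipa1. From 50 to 100 kb it was 1 of 5 at day 3 and 3 of 5 at day 5, from 100 to 250 kb 8 of 21 and 13 of 21, and from 250 to 500 kb 7 of 18 and 9 of 18. The bins up to 100 kb hold too few genes for a trend. On the lower-coordinate side of Kat5, 6 of 22 genes were called at day 3 and 9 of 22 at day 5, against 12 of 26 and 18 of 26 on the higher-coordinate side, and the difference between the sides was not tested.

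Beyond the listed genes, the strongest rises within 500 kb among genes averaging at least 2 CPM included those of Slc25a45 (a mitochondrial carrier, 266 kb away, log2 fold change 1.63) and Ccdc85b (145 kb, 0.75) at day 3, and of Neat1 at day 5. Neat1, the long noncoding RNA of paraspeckles, lies 213 kb away and averaged 715 ± 117 CPM in KO and 223 ± 36.8 CPM in control at day 5 (SD, n = 4 each; log2 fold change 1.68). The strongest falls included those of Fau, a ribosomal protein gene 446 kb away (-1.37 at day 3), Syvn1, an endoplasmic reticulum ubiquitin ligase (-0.93 at day 3), Fosl1, a subunit of AP-1 (-0.91 at day 5), and Capn1, a calcium-dependent protease (-0.85 at day 5). Between Ehbp1l1 and Ltbp3, Fam89b had -0.20 at day 3 and fell by 0.28 at day 5 (adjusted p = 0.024), and Znrd2 was called at neither day. Between Map3k11 and Ehbp1l1, Kcnk7 had 5, 2, 1 and 2 counts in the KO libraries at day 5 and 0 in the other 10 libraries. Kcnk7 did not pass the filter on low counts and was not tested, so these few counts allow no comparison.

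**Figure D4:**
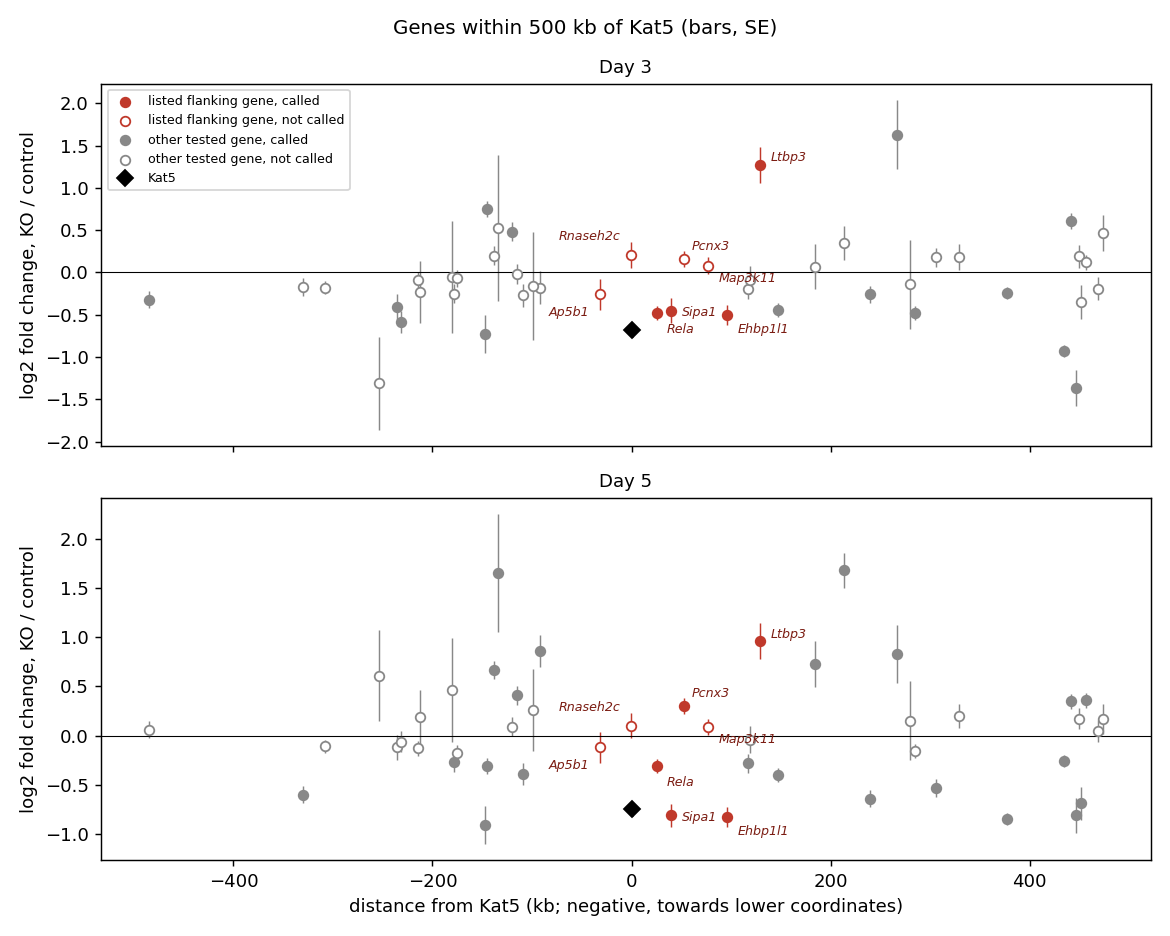
Log2 fold change, KO over control, with its SE for the 48 tested genes within 500 kb of Kat5, by distance from Kat5 (kb), at day 3 (top) and day 5 (bottom). Listed neighbours are red, other genes grey and Kat5 a black diamond, and filled points are called. Within 50 kb the called genes, 2 of 4 at each day, are both lower, no gene within 100 kb is called higher at day 3, and Rnaseh2c next to Kat5 lies near 0.

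The size of the KO effect was not called different between the days for any of the 8 neighbours (edgeR interaction test), against 14.3% of all genes called (7.16% with a higher and 7.15% with a lower value at day 5). None had an unadjusted p below 0.05, and the lowest was that of Ehbp1l1 (-0.33 ± 0.158, unadjusted p = 0.0531, adjusted p = 0.176). With DESeq2, 0 of 8 were called and 1 had an unadjusted p below 0.05. For Sipa1 the difference was -0.36 (95% interval -0.76 to 0.04, adjusted p = 0.214), and it was called without control day 5 replicate 4 (-0.49, adjusted p = 0.0202). Among female libraries alone Sipa1 (-0.72, adjusted p = 0.0147) and Ehbp1l1 (-0.69, adjusted p = 0.0191) were called.

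Ap5b1 was lower at day 5 than at day 3 in both genotypes. In KO it averaged 4.45 ± 0.791 CPM at day 5 (SD, n = 4) and 6.68 ± 0.204 CPM at day 3 (n = 3), with a log2 fold change of -0.59 (adjusted p = 0.0353). In control it averaged 4.85 ± 0.286 CPM at day 5 and 8 ± 1.21 CPM at day 3, with -0.73 (adjusted p = 0.00299). The days did not overlap in either genotype, but the call in KO was lost with the embryo as a replicate block (-0.67, adjusted p = 0.0568).

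Map3k11 was higher at day 5 in both genotypes, with a log2 fold change of 0.30 in KO (27.7 ± 0.596 CPM at day 5 and 22.9 ± 2.18 CPM at day 3, adjusted p = 0.0459) and 0.30 in control (26 ± 2.19 CPM and 21.2 ± 1.81 CPM, adjusted p = 0.0179). Both calls were lost with the embryo as a replicate block (0.30, adjusted p = 0.105, in KO and 0.21, adjusted p = 0.241, in control). Rnaseh2c was higher at day 5 in control (16.2 ± 1.43 CPM at day 5 and 11.6 ± 1.52 CPM at day 3, log2 fold change 0.48, adjusted p = 0.0148), and this call too was lost with the embryo block (0.41, adjusted p = 0.135). In KO it had 0.38 (adjusted p = 0.102).

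In all, 2 of 8 neighbours were called between the days in KO, 1 higher and 1 lower at day 5 (12% of all genes, 4.98% higher and 7.06% lower), and 3 of 8 in control, 2 higher and 1 lower (38.3%, 18.3% higher and 19.9% lower), and libraries of the days did not overlap for 3 of 8 in each genotype (26.9% of all genes in KO and 42.7% in control). Rela, Sipa1, Pcnx3, Ehbp1l1 and Ltbp3 were not called between the days in either genotype.

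Per kb of gene length, Ltbp3 had the highest level of the neighbours in KO, at 59.3 ± 1.2 CPM per kb at day 3 and 62.5 ± 4.26 at day 5 (SD), against 24.6 ± 2.23 and 32.2 ± 11.9 in control. In KO at day 3 it was followed by Rela (24.8 ± 2.72), Ehbp1l1 (20.9 ± 4.01), Rnaseh2c (19.8 ± 3.94), Pcnx3 (15.9 ± 0.987), Sipa1 (7.52 ± 1.02), Map3k11 (6.01 ± 0.572) and Ap5b1 (2.16 ± 0.066). The ranges of Rela, Ehbp1l1 and Rnaseh2c overlapped there, as did those of Rnaseh2c and Pcnx3 and those of Sipa1 and Map3k11. In control at day 3 the first place was taken by Rela (35 ± 3.25), followed by Ehbp1l1 (29.8 ± 3.68), whose range overlapped that of Rela, and then by Ltbp3, whose range overlapped that of Ehbp1l1. Over all 14 libraries Ltbp3 stood at percentile 89 of the tested genes per kb, Rela at 82.2, Sipa1 at 52.2 and Ap5b1 at 21.7.

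For each neighbour the tested gene with the most similar profile over the 14 libraries, by Pearson r of log2 CPM, lay on another chromosome. For Ltbp3 it was Amot (r = 0.991), for Sipa1 Cct7 (0.983), for Ehbp1l1 Actr3 (0.98) and for Rela Comtd1 (0.974). For Ap5b1 it was Zmiz1 (0.966), for Rnaseh2c Cnot8 (0.943), for Pcnx3 Ugt8a (0.936) and for Map3k11 Snx11 (0.902). Each is the best of 14327 genes over libraries that share group structure and depth, and the values are descriptions.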

How the data were processed

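Per the labels' protocols, stranded poly(A) libraries of MEF RNA were sequenced as paired-end reads, and featureCounts with the mm10 build is named in the submitters' processing notes. No source used here gives the aligner, the annotation release or the strand setting. The authors deposited raw counts per gene with gene length. Of 27179 lines, 909 named no gene (0.194% to 0.315% of a library's counts) and were left out, which left 26270 identifiers, 25275 with a RefSeq symbol.

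In R 4.3.3, edgeR 4.0.16 with limma 3.58.1 filtered low counts (filterByExpr), scaled libraries by TMM (trimmed mean of M values) and fitted all 14 libraries together in a robust quasi-likelihood model with a mean for each of the 4 groups. P values were adjusted over 14327 genes by the Benjamini-Hochberg method, and called means an adjusted value below 0.05. Xist, Tsix and Y-linked genes (112 together) were left out. CPM values use TMM-scaled totals, and fold changes come from the fit. DESeq2 1.42.0 was an alternative. Estimates of the fit were checked on simulated counts of independent libraries with 200 changed genes. Far more genes were called in these data, and libraries share embryos, so that check does not cover the calls here. The labels mention no molecular identifiers, so counts may carry amplification noise besides counting error. Positions are from RefSeq GRCm38.p6, and 8 of 9 neighbours had a promoter entry.

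The members, partner lists and marker lists were chosen with earlier results of these data known. The 8 marker lists cover fibroblasts, epithelium, macrophages, endothelium, cartilage and bone, skeletal muscle, neural and glial cells, and adipocytes. Named genes were all neighbours, the genes between them, the 3 most raised and 3 most lowered called genes within 500 kb with a mean of at least 2 CPM at each day, up to 4 called genes per partner list and contrast with the smallest adjusted p, and the most similar gene per neighbour; those printed were picked from these. Exceptions are stated. P values treat libraries as independent and describe the spread between these cultures.

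The 2 days are paired by embryo label within each genotype. With group means subtracted, libraries of the same embryo correlated at -0.0229 to 0.204. Within groups, count profiles differed beyond sampling noise (chi-square per degree of freedom 3.18 to 75.3), so no library was a copy of another.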

Additional observations from a re-analysis of the deposited data

Results flagged for a closer look

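Rnaseh2c had 18.3 CPM in control day 5 replicate 4, against 15.3 to 15.8 CPM in the other 3 libraries of that group, a gap that was 0.847 of the group's range, above Dixon's 95% critical value for 4 samples. Chance alone marks about 1 in 20 groups, and 16 groups were checked. The same library had the lowest Sipa1 and the highest Ap5b1, Pcnx3, Map3k11 and Ltbp3 of its group, and these gaps did not pass the critical value (0.803 of the range for Ltbp3).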

How the results depend on the processing

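No value of a called neighbour reversed among 912 alternatives for single genes. Of these alternatives, 865 kept the call or its absence, 41 lost the call and 6 gained it. Some values that were not called lay near 0 and changed sign, such as those of Ap5b1 (-0.29 to 0.08) and Rnaseh2c (-0.09 to 0.17) between genotypes at day 5. Alternatives restricted to 1 sex were chosen after seeing the data. With female libraries only, 2 neighbours were called at day 3 (4 in the fit reported), 2 for the difference between days (0), and 0 between the days in KO (2), where 565 of all genes were called (1725). With male libraries only, 1 neighbour, Ehbp1l1, and 3631 of all genes were called at day 5 (5 and 7519), and 0 neighbours between the days in KO. These fits hold 1 library in some groups, which is assumed to vary like the others.

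The calls between the days in KO were the least stable. They numbered 1 with DESeq2 size factors, 0 with no filter, 1 with only the 2 groups compared in the fit, 0 with the replicate number as a replicate block and 0 with the embryo as a replicate block. In control the embryo block left 1 of 3. The paired fits changed no other count by over 1.5 times. Replicate numbers between genotypes share only a number: same-numbered libraries correlated at -0.166 to 0.428 after group means were removed, and with that block 4 neighbours were called at day 3 and 5 at day 5, as without it. Leaving out 1 library at a time gave 3 to 4 neighbours called at day 3 and 5 at day 5. It gave 0 to 1 for the difference between days (1275 to 2745 of all genes; 2051 with all libraries, and 1275 without control day 3 replicate 3), 0 to 2 between the days in KO (1024 to 2549 of all genes, the lowest without KO day 3 replicate 4) and 1 to 4 in control. In control, Rnaseh2c lost its call without day 3 replicate 1 or 3 (adjusted p = 0.0639 and 0.0558) and Map3k11 without day 3 replicate 3 (0.0965), Ltbp3 gained one without day 5 replicate 1 (0.51, adjusted p = 0.0468) and Sipa1 without day 5 replicate 4 (0.31, adjusted p = 0.0186). The cause of these shifts was not tested.

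Depth limits Ovol1, with at most 3 counts in a library, and Ap5b1, with 14 counts in the shallowest.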
